A study of Mus musculus with 27 samples.

Results

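Purinergic receptors are the cell-surface receptors for extracellular nucleotides and adenosine. The 9 receptor genes described here, P2rx4, P2rx7, P2ry2, P2ry6, P2ry12, P2ry13, P2ry14, Adora2a and Adora2b, were taken by gene symbol from a table of 45070 mouse genes, and all 9 had a row in it. The cells were bone marrow-derived macrophages (BMDMs), primary macrophages grown from the bone marrow of male C57/BL6 mice. All samples, untreated ones included, received 1 h of DMSO, the vehicle of the drugs used elsewhere in the study. One group then got no stimulus, and the others got lipopolysaccharide (LPS) or interleukin-4 (IL-4) at 10 ng/ml for 0.5, 1, 2 or 4 h, which gave 9 groups of 3 replicates and 27 samples. RNA bound to chromatin was sequenced, so the values follow transcripts that were being made or had just been made, and not the pool of mature mRNA.

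ATP leaves damaged or activated cells and acts on P2X receptors, which are cation channels opened by ATP, and on P2Y receptors, which couple to G proteins and recognise ATP, ADP, UTP, UDP or UDP-sugars according to the subtype. Enzymes on the cell surface cut ATP down to adenosine, which acts on its own G protein-coupled receptors. In macrophages this system is known for inflammasome activation through P2rx7, for migration towards dying cells through P2ry2, and for the damping of inflammatory cytokine production by adenosine through Adora2a and Adora2b. LPS, a bacterial wall component sensed by TLR4, drives the inflammatory state of macrophages, whereas IL-4 acts through STAT6 and drives an alternative state linked to repair.

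Values are normalised read counts, whole numbers that the authors scaled on a set of invariant genes. Their sums were 2488987 to 2578543 in the untreated samples, 2469768 to 2790981 after IL-4 and 3571492 to 4058199 after LPS, and the sequencing depth behind them is unknown. Replicate 1 stood apart from the other two replicates in every group. Over 620 abundant genes, replicates 2 and 3 of a group differed with an SD of the log2 ratio of 0.138 to 0.287, against 0.371 to 0.451 between replicates 1 and 2 and 0.370 to 0.496 between replicates 1 and 3. Macrophage markers (Csf1r, Adgre1, Mertk and 5 others) summed to 9601 to 17928 per sample. The summed markers of T cells, B cells, neutrophils, mast cells, platelets, erythroid cells and microglia reached at most 28, and Cd3e, Cd3g, Ly6g, Xcr1, Fcer1a and Hbb-bs were listed at 0 in all samples. Fibroblast markers summed to 27 to 207 and dendritic cell markers to at most 96, of which Zbtb46 reached 90, and their part in the results below was not tested. In these bulk samples fewer cells of a type and less RNA per cell cannot be told apart. The labels do not say whether replicates came from separate cultures or animals, so p-values measure the spread between these samples.

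In untreated macrophages the receptor genes covered a wide range of levels. Divided by the length of the gene, P2ry6 stood at 22.8 ± 2.52 normalised read counts per kb (SD, n = 3 here and for all means below), P2rx4 at 18.1 ± 2.72 and P2rx7 at 9.39 ± 0.847. The 3 receptor genes of the chromosome 3 cluster followed, P2ry12 at 1.76 ± 0.152, P2ry13 at 1.45 ± 0.511 and P2ry14 at 1.34 ± 0.381 per kb. Adora2b at 0.458 ± 0.151, P2ry2 at 0.387 ± 0.129 and Adora2a at 0.0372 ± 0.0322 per kb were the lowest. The ranges of P2ry6 and P2rx4 overlapped, as did those of the 3 chromosome 3 genes and those of Adora2b and P2ry2, so their order within these sets is not settled, whereas P2rx7 lay apart from the genes above and below it. The place of P2ry13 depended on the length used. Divided by cDNA length its mean was 1.71 per kb, below P2ry12 (32.2), P2ry14 (20.2), Adora2b (4.34) and P2ry2 (1.96).

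**Figure D1:**
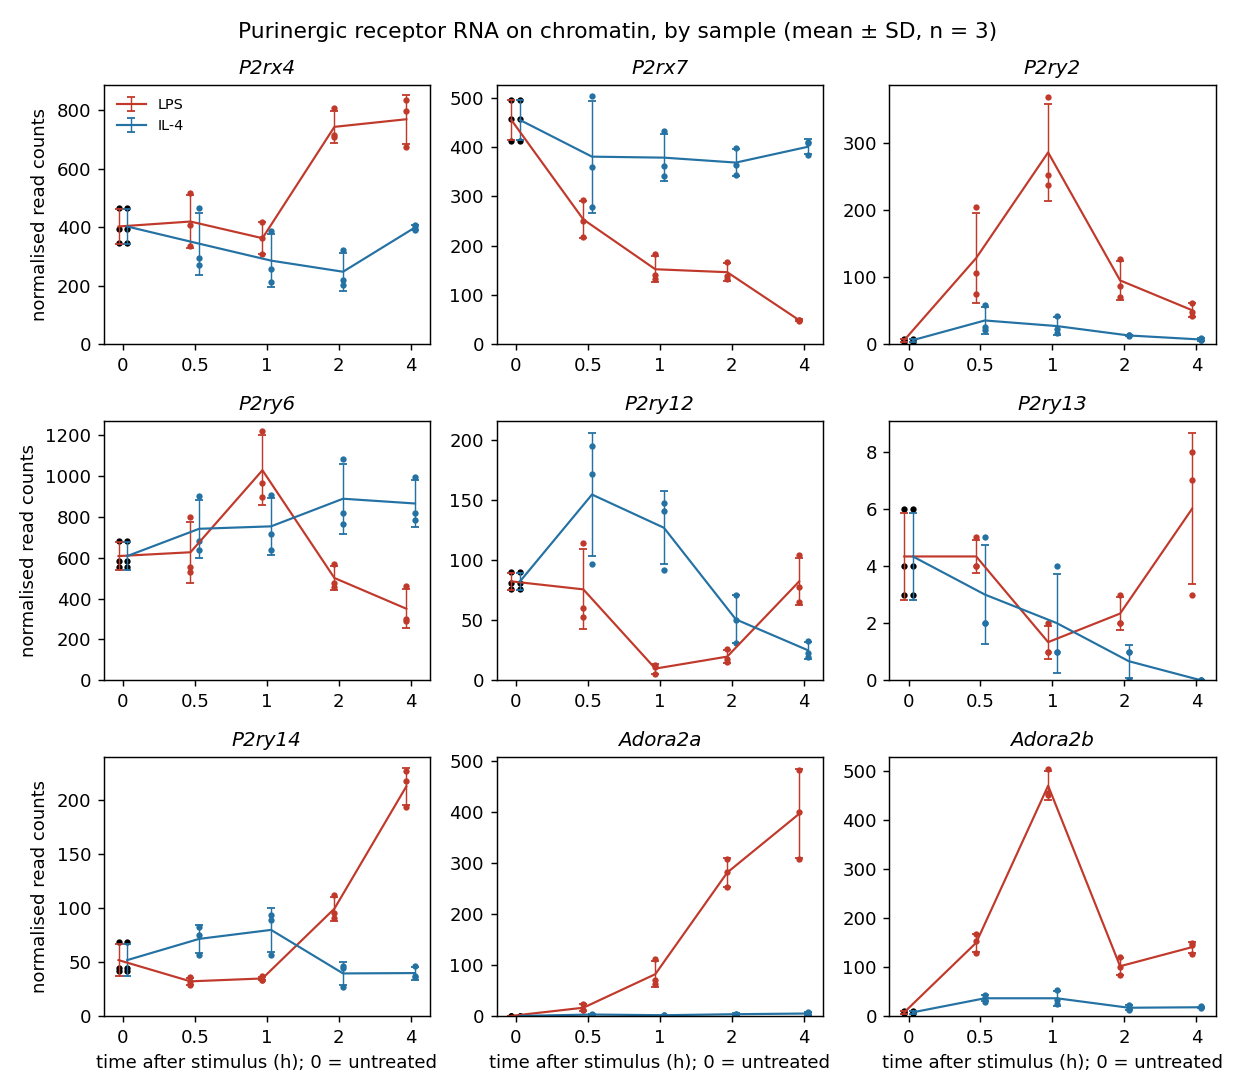
Normalised read counts (vertical axis, linear, each panel with its own scale from 0) of the 9 receptor genes against time after stimulus (0 is untreated, in black), with LPS in red and IL-4 in blue; points are samples, lines join means and bars are SD of 3 samples. P2ry2 and Adora2b peaked at 1 h of LPS, Adora2a and P2ry14 were highest at 4 h of LPS, and P2rx7 fell to between 47 and 50 at 4 h of LPS.

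A gene was tested where at least 3 of the 27 samples reached 10 normalised read counts, which kept 8 of the 9 receptor genes. P2ry13, which never exceeded 8, was not tested. Adora2a passed only through its 12 LPS samples and P2ry2 through 12 LPS and 9 IL-4 samples. Adora2b passed through 12 LPS and 12 IL-4 samples and only 1 untreated sample. A difference between groups was thus built into the selection of these genes, and the counts and medians below are no support by themselves. All 8 tested receptor genes changed over the LPS course in the moderated F test of limma (adjusted p 8.26e-12 to 3.88e-05), where 87.6% of all 13901 tested genes did. Over the IL-4 course 5 of 8 passed, P2ry2, P2ry12, P2ry14, Adora2a and Adora2b, against 40.3% of all tested genes. Both courses were compared with the same 3 untreated samples. No unstimulated samples were taken at the later times, so a change against untreated cannot be told apart from an effect of time or handling. Words such as raised or lowered describe differences from these untreated samples. Log2 fold changes are differences of log2(value + 1), which understate the change of genes with low values, and adjusted p-values throughout are those of limma with Benjamini-Hochberg adjustment over all tested genes and a threshold of 0.05.

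Against untreated samples, LPS raised 3 and lowered 2 of the 8 tested receptor genes at 0.5 h, where 19.6% of all tested genes were called higher and 34.4% lower. At 1 h 4 were higher and 3 lower (24.8% and 39.0% of all tested genes), at 2 h 5 and 2 (26.9% and 39.0%), and at 4 h 5 and 2 (25.9% and 37.6%). P2ry2, Adora2a and Adora2b were higher at all 4 times, P2rx7 was lower at all 4 times, and the other 4 genes changed at some times or changed direction. The median log2 change of the 8 genes was 0.04, 0.30, 0.92 and 1.49 from 0.5 to 4 h, against −0.24, −0.30, −0.29 and −0.26 over all tested genes. The former median includes P2ry2, Adora2a and Adora2b, which passed the filter through stimulated samples. It therefore does not show a rise of the receptor genes as a set. With the values rescaled to equal sample totals, the median of all tested genes stood at −0.73 to −0.91 over the LPS times and the share of calls that were higher at 18.3% to 23.7%, against 36.3% to 40.8% with the authors' scaling and 48.1% to 49.3% with median-of-ratios factors. The receptor counts moved too. With equal totals both early times had 3 genes higher and 4 lower, while the 2 h samples had 3 of each and the 4 h samples had 4 higher and 2 lower, and P2ry2, Adora2a and Adora2b stayed higher and P2rx7 lower at all 4 times.

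**Figure D2:**
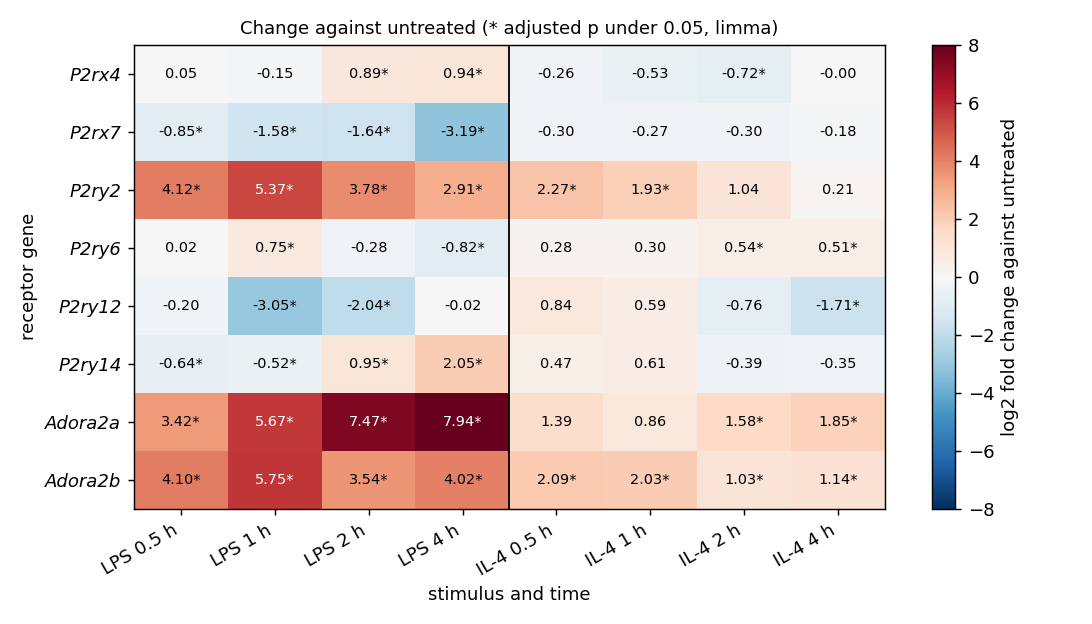
Log2 fold change against untreated (colour and printed value) of the 8 tested receptor genes at each LPS and IL-4 time point, with an asterisk where limma gave an adjusted p under 0.05. Changes after LPS ran from −3.19 (P2rx7 at 4 h) to 7.94 (Adora2a at 4 h), and those after IL-4 from −1.71 (P2ry12 at 4 h) to 2.27 (P2ry2 at 0.5 h).

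P2rx7 encodes the ATP-gated channel that needs high ATP, lets potassium out of the cell and thereby triggers the NLRP3 inflammasome. The gene lies on the plus strand at chr5:122643927-122692336 (GRCm38, as are all coordinates here). It stood at 495, 456 and 413 normalised read counts in the untreated samples. LPS brought it to 292, 218 and 249 at 0.5 h, to 182, 133 and 141 at 1 h and to 167, 132 and 139 at 2 h, and at 4 h only 50, 47 and 49 were left. No LPS sample overlapped the untreated range, and the mean at 4 h was 9.34-fold below untreated. The log2 changes were −0.85 ± 0.15 (SE here and below), −1.58 ± 0.15, −1.64 ± 0.15 and −3.19 ± 0.15, with adjusted p = 0.000236, 2.94e-07, 1.43e-07 and 5.50e-11. The fall came in steps, since 1 h was below 0.5 h by a log2 difference of −0.73 (adjusted p = 0.000899) and 4 h below 2 h by −1.56 (adjusted p = 2.99e-06), whereas 2 h and 1 h differed by −0.05 (95% interval −0.37 to 0.27). After IL-4 P2rx7 ranged from 278 to 503, and none of the 4 changes passed the test (log2 −0.30 to −0.18, with 95% intervals reaching from −0.66 to 0.18 at most). Without replicate 1 the F test of limma over the IL-4 course passed (adjusted p = 0.0340), as did a fall of −0.45 at 0.5 h (adjusted p = 0.0161).

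The promoter of P2rx7 is shown because it held 1 of the 3 motif matches found among these genes. Promoters were taken from RefSeq for GRCm38.p6 as the 250 bases before to the 50 bases after the start site of the gene, and 7 of the 9 genes matched at the start of their span, P2ry6 and Adora2a having none. Capitals mark the match to the AP-1 motif TGANTCA, which begins 249 bases before the start site, and the window is chr5:122643677-122643976 on the plus strand.
P2rx7 promoter: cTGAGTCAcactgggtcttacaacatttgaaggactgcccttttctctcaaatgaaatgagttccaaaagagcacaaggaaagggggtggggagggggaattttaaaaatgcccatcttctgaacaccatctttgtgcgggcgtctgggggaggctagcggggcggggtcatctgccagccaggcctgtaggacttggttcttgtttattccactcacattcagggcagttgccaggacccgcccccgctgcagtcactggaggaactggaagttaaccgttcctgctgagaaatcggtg

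P2rx4 encodes the calcium-permeable ATP-gated channel that cycles between lysosomes and the surface of macrophages. It lies 15207 bases downstream of P2rx7 on the same strand (chr5:122707544-122729738). Untreated samples held 466, 346 and 395 normalised read counts, and the LPS samples still spanned 336 to 516 at 0.5 h and 307 to 417 at 1 h. At 2 h LPS gave 709, 714 and 806 and at 4 h 675, 796 and 836, all above every untreated sample. The log2 changes were 0.05 ± 0.16 and −0.15 ± 0.16 at the early times, neither of which passed, then 0.89 ± 0.16 (adjusted p = 0.000197) and 0.94 ± 0.16 (adjusted p = 0.000129). The rise fell between 1 and 2 h, where the log2 difference was 1.04 (adjusted p = 8.49e-05), and 4 h did not differ from 2 h beyond the spread (0.05, 95% interval −0.30 to 0.40). These calls depended on the scaling. With the samples rescaled to equal totals P2rx4 was lower at 0.5 h by −0.46 (adjusted p = 0.0204) and at 1 h by −0.73 (adjusted p = 0.000820), and the rises at 2 and 4 h shrank to 0.23 and 0.33 and no longer passed (adjusted p = 0.202 and 0.0777).

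IL-4 left P2rx4 within 201 to 466. Its log2 change of −0.72 ± 0.24 at 2 h, from samples at 321, 221 and 201, passed by itself (adjusted p = 0.0391), but the F test over the course did not (adjusted p = 0.0783). Without replicate 2 or without replicate 3 the change at 2 h was −0.75 or −0.59 and did not pass (adjusted p = 0.206 and 0.283). It also did not pass with no filter on low values or with replicates 2 and 3 averaged (adjusted p = 0.124 and 0.221). Without replicate 1 the F test passed (adjusted p = 0.000212), as did falls of −0.39 at 0.5 h and −0.66 at 1 h (adjusted p = 0.0275 and 0.00115). The F test also passed with equal totals and with all 27 samples in the fit (adjusted p = 0.0468 and 0.0291). At 4 h of IL-4 the gene was back at 401, 390 and 406.

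P2ry2 encodes the receptor for ATP and UTP that couples to Gq and guides phagocytes towards the nucleotides of dying cells. It lies on the minus strand at chr7:100996568-101012053. It was almost silent in untreated macrophages, at 8, 4 and 6 normalised read counts. LPS raised it to 204, 106 and 75 at 0.5 h and to its peak of 368, 237 and 252 at 1 h, after which it declined to 127, 71 and 87 at 2 h and 62, 48 and 42 at 4 h. Each LPS sample was above each untreated sample, and the peak mean was 47.6-fold the untreated mean. The log2 changes were 4.12, 5.37, 3.78 and 2.91 (each ± 0.34), with adjusted p between 2.39e-09 and 1.74e-06. The decline from 1 to 2 h was a log2 difference of −1.59 (adjusted p = 0.00111). The rise from 0.5 to 1 h was 1.25 (adjusted p = 0.00601) and lost its call without replicate 2 or replicate 3 (1.29 and 1.00, adjusted p = 0.0515 and 0.104).

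IL-4 also raised P2ry2, to 59, 26 and 21 at 0.5 h and 42, 23 and 16 at 1 h, before 13, 14 and 12 at 2 h and 6, 6 and 9 at 4 h. The early rises were 2.27 ± 0.39 (adjusted p = 0.00109) and 1.93 ± 0.39 (adjusted p = 0.00273) on the log2 scale, and 4 h was below 0.5 h by −2.06 (adjusted p = 0.00154). Replicate 1 was the highest of the 3 samples at both early times. Without replicate 2 the rises at 0.5 and 1 h were 2.19 and 1.77 and did not pass (adjusted p = 0.0748 and 0.109). The promoter of P2ry2, chr7:101012004-101012303 on the minus strand, is shown as that of a gene raised within 0.5 h by both stimuli. None of the 5 motifs searched was found in it.
P2ry2 promoter: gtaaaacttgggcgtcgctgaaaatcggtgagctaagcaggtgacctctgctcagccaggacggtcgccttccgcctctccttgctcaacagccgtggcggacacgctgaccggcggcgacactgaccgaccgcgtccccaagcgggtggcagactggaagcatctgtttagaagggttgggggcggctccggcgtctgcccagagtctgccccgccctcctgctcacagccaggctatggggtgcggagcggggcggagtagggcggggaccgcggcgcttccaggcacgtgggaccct

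P2ry6 encodes the UDP receptor, which couples to Gq and is known for promoting phagocytosis in microglia. It lies 32201 bases downstream of P2ry2 on the same strand (chr7:100937634-100964366) and had the highest untreated mean of the 9 genes per kb, with a range that overlapped that of P2rx4. Untreated samples held 684, 555 and 586 normalised read counts. LPS gave 799, 554 and 528 at 0.5 h, then 1222, 899 and 966 after 1 h, 569, 456 and 478 after 2 h and 462, 299 and 290 after 4 h. The 1 h samples were all above the untreated ones and the 4 h samples all below them, so the gene rose and then fell below its starting level within the course. The log2 change was 0.75 ± 0.19 at 1 h (adjusted p = 0.00343) and −0.82 ± 0.19 at 4 h (adjusted p = 0.00172). From 1 to 4 h, a contrast added after the values had been seen, the difference was −1.57 ± 0.19 (adjusted p = 5.65e-06). With samples rescaled to equal totals the rise at 1 h shrank to 0.17 (adjusted p = 0.436). The changes at 0.5 and 2 h, 0.02 and −0.28 with the authors' scaling and neither called, became falls of −0.49 (adjusted p = 0.0340) and −0.94 (adjusted p = 0.000351).

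After IL-4 the higher values came late. P2ry6 stood at 905, 640 and 681 at 0.5 h, then 909, 715 and 638 after 1 h, 1086, 765 and 817 after 2 h and 995, 786 and 817 after 4 h. The samples at 2 and 4 h were all above the untreated ones, with log2 changes of 0.54 ± 0.17 (adjusted p = 0.0320) and 0.51 ± 0.17 (adjusted p = 0.0436), yet the F test over the course did not pass (adjusted p = 0.101). Both rises lost their call when replicate 2 or replicate 3 was left out (0.51 to 0.57, adjusted p = 0.157 to 0.232) and with median-of-ratios factors (0.51 and 0.46). Without replicate 1 the F test passed (adjusted p = 0.00178), as did the change at 1 h (0.24, adjusted p = 0.0348).

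P2ry12, P2ry13 and P2ry14 lie side by side on the minus strand of chromosome 3 and encode Gi-coupled receptors, P2ry12 and P2ry13 for ADP and P2ry14 for UDP-glucose and other UDP-sugars. P2ry12 is best known as the platelet receptor that antiplatelet drugs block and as a marker of resting microglia. Tmem119 and Sall1, the microglia markers, summed to at most 5 in these samples, and platelet markers to at most 12.

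P2ry12 (chr3:59216271-59262985) stood at 90, 81 and 76 normalised read counts in untreated samples. LPS left it at 53, 60 and 114 at 0.5 h, brought it down to 5, 11 and 13 by 1 h and 18, 15 and 26 by 2 h, and returned it to 65, 78 and 104 at 4 h. The samples at 1 and 2 h lay below the whole untreated range, and those at 0.5 and 4 h overlapped it. The log2 change was −3.05 ± 0.34 at 1 h (adjusted p = 1.50e-06) and −2.04 ± 0.34 at 2 h (adjusted p = 7.64e-05), and at 4 h it was −0.02 (95% interval −0.75 to 0.70). The return from 2 to 4 h was 2.02 (adjusted p = 0.000504). The smaller step from 1 to 2 h, 1.01 (adjusted p = 0.0247), lost its call without any 1 of the 3 replicates (0.68 to 1.31, adjusted p = 0.0525 to 0.0836).

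Under IL-4 the high values of P2ry12 came early and the low values late. P2ry12 stood at 97, 195 and 172 at 0.5 h, then 92, 141 and 148 after 1 h, 31, 50 and 71 after 2 h and 19, 23 and 33 after 4 h. All samples at 0.5 and 1 h exceeded the untreated ones, but with replicate 1 well below the other two these rises of 0.84 and 0.59 did not pass (adjusted p = 0.0933 and 0.227). The fall at 4 h was −1.71 ± 0.32 (adjusted p = 0.00118) and the decline from 0.5 to 4 h was −2.56 ± 0.32 (adjusted p = 5.35e-05). Without replicate 1 the early rises passed, at 1.21 and 0.87 (adjusted p = 0.00159 and 0.00813), and without replicate 2 the fall at 4 h was −1.68 and did not (adjusted p = 0.0588). The promoter of P2ry12, chr3:59262936-59263235 on the minus strand, held a match to the NF-kB site, in capitals, which begins 51 bases before the start site.
P2ry12 promoter: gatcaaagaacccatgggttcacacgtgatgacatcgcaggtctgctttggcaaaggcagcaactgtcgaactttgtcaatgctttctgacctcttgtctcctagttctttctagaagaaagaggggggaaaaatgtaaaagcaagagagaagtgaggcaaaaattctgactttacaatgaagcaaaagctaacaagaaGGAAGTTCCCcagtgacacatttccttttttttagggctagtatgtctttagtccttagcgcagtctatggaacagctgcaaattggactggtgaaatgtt

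P2ry13 (chr3:59207892-59210882) was close to absent throughout. It held 6, 3 and 4 normalised read counts in untreated samples, 1 to 5 after 0.5 to 2 h of LPS and 7, 3 and 8 after 4 h. After IL-4 it held 2 to 5 at 0.5 h, 1 to 4 at 1 h and 0 or 1 at 2 h, and it was listed at 0 in all 3 samples at 4 h. It was too low for the filter on low values. In the alternative fit of all genes above 0, the F test of P2ry13 passed in both courses (adjusted p = 0.0126 for LPS and 0.0114 for IL-4), on differences of a few normalised read counts.

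P2ry14 (chr3:59114623-59153492) was lower early and higher late in the LPS course. Untreated samples held 45, 42 and 69 normalised read counts. LPS gave 29, 36 and 32 at 0.5 h and 34, 37 and 34 at 1 h, all below the untreated samples, then 96, 91 and 112 at 2 h and 218, 194 and 227 at 4 h, all above them. The log2 changes were −0.64 ± 0.19 (adjusted p = 0.00875), −0.52 ± 0.19 (adjusted p = 0.0220), 0.95 ± 0.19 (adjusted p = 0.000322) and 2.05 ± 0.19 (adjusted p = 1.12e-07), and the mean at 4 h was 4.10-fold the untreated mean. The steps from 1 to 2 h and from 2 to 4 h were 1.48 and 1.09 (adjusted p = 8.74e-06 and 0.000558). The early falls rested on the authors' scaling and on replicate 3, since they were −0.40 and −0.27 with median-of-ratios factors and −0.42 and −0.29 without replicate 3, none past the threshold, and the rise at 2 h was 0.30 and did not pass with equal totals.

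IL-4 gave P2ry14 values of 57, 75 and 83 at 0.5 h, then 57, 94 and 89 after 1 h, 27, 47 and 45 after 2 h and 36, 37 and 47 after 4 h. Its F test passed (adjusted p = 0.0167), although none of the 4 times differed from untreated past the threshold (log2 −0.39 to 0.61). What passed was the drop from 1 to 2 h, −1.001 ± 0.26 (adjusted p = 0.0294), and that from 0.5 to 4 h, −0.82 ± 0.26 (adjusted p = 0.0332), and both lost their call without replicate 2 or replicate 3 (−0.73 to −1.02, adjusted p = 0.150 to 0.280), as did the F test (adjusted p = 0.228 and 0.137). P2ry14 held the other AP-1 match, in capitals, which begins 202 bases before the start site in chr3:59153443-59153742 on the minus strand.
P2ry14 promoter: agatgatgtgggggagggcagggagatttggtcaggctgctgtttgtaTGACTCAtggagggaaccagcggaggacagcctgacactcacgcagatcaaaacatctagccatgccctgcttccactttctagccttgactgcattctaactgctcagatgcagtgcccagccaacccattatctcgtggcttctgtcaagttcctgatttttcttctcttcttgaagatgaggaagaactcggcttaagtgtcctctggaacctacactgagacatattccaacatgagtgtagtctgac

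The 3 genes lie inside Med12l (chr3:59006978-59318416), which encodes a Mediator subunit and runs on the plus strand, opposite to them. The sources used here do not state whether reads were counted by strand, so reads of Med12l and of the receptor genes cannot be told apart. Med12l held 157, 138 and 167 normalised read counts in untreated samples, and the sum of the 3 receptor genes held 141, 126 and 149. The receptor sum came to 89.2% to 91.3% of Med12l in the untreated samples, to 82.0% to 87.8% at 0.5 and 1 h of LPS and to 82.1% to 90.6% after IL-4. At 2 h of LPS it was 68.0% to 76.9% and at 4 h 63.0% to 67.0%, so that Med12l exceeded the sum by 138 to 199 at 4 h, against 12 to 18 in untreated samples. The value listed for Med12l fell at 1 h of LPS by a log2 change of −1.48 ± 0.18 (adjusted p = 3.51e-06). The receptor sum fell alongside, from a mean of 139 in untreated samples to 46, and Med12l exceeded it there by 8 to 9. At 4 h Med12l rose by 1.57 ± 0.18 (adjusted p = 1.51e-06), and it never stood below the receptor sum in any of the 27 samples.

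**Figure D3:**
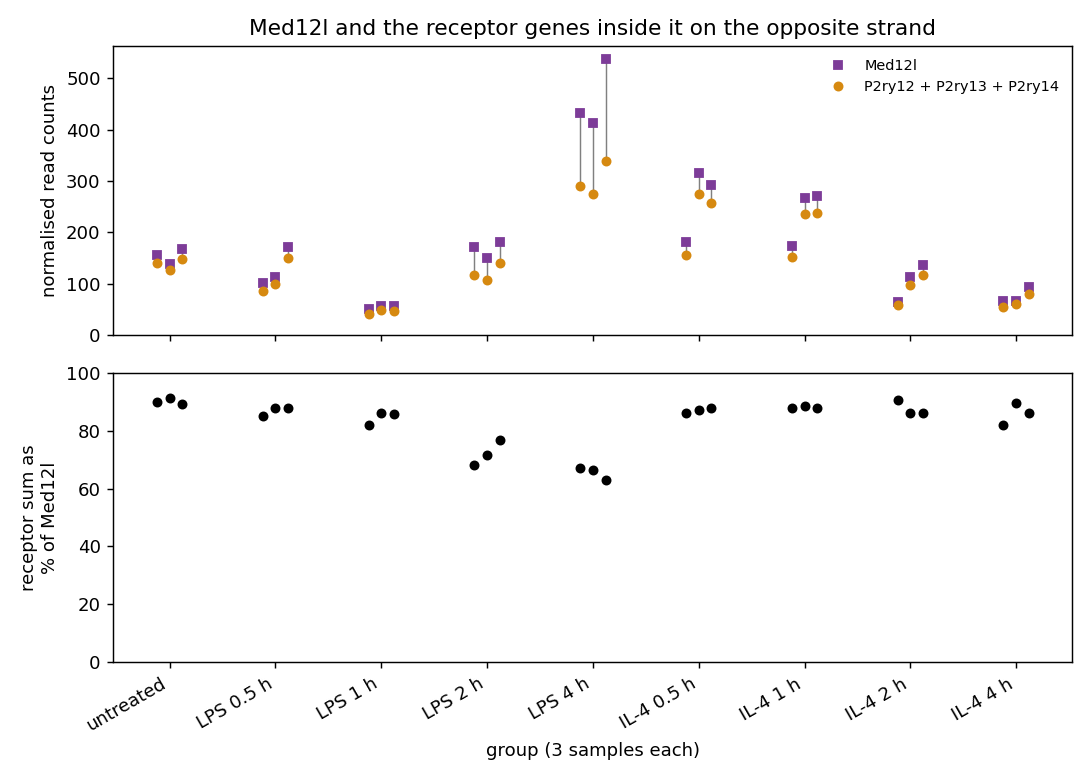
Upper panel, normalised read counts of Med12l (squares) and of the sum of P2ry12, P2ry13 and P2ry14 (circles) in each sample, joined by a grey line; lower panel, the receptor sum as a percentage of Med12l, for 9 groups of 3 samples. The percentage lay at or above 82.0 in all groups but LPS 2 h and LPS 4 h, where it was 63.0 to 76.9.

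F630111L10Rik, a non-coding RNA that overlaps the start of P2ry14 on the same strand, stood at 15, 11 and 20 in untreated samples and at 59, 44 and 43 at 4 h of LPS (log2 change 1.63 ± 0.31, adjusted p = 0.000255), and reads in the shared stretch cannot be told apart from those of P2ry14. No other tested gene overlapped a receptor gene. Mir8115, which lies inside P2rx7, held 0 to 6.

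Adora2a encodes the Gs-coupled adenosine receptor of high affinity, whose activation raises cAMP and restrains inflammatory cytokine production. The gene lies on the plus strand at chr10:75316877-75334792. It was listed at 0, 1 and 1 normalised read counts in untreated samples. LPS raised it to 24, 13 and 13 at 0.5 h, then 112, 64 and 71 after 1 h, 308, 253 and 283 after 2 h and 482, 399 and 308 after 4 h, and every LPS sample lay above every untreated one. The log2 changes were 3.42, 5.67, 7.47 and 7.94 (each ± 0.31), with adjusted p from 3.05e-07 at 0.5 h to 7.03e-12 at 4 h, and they were the largest of the 8 tested genes at 2 and 4 h. With untreated values this low the size depends on the pseudocount, and the change at 4 h was 8.55 with 0.5 and 5.52 with 8 in place of 1. The steps from 0.5 to 1 h and from 1 to 2 h passed (2.25 and 1.80, adjusted p = 2.60e-05 and 0.000212) and that from 2 to 4 h did not (0.47, 95% interval −0.19 to 1.14).

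IL-4 samples held 1 to 8 normalised read counts of Adora2a. The F test passed (adjusted p = 0.0330), as did 2 h (1.58 ± 0.47, adjusted p = 0.0216) and 4 h (1.85 ± 0.47, adjusted p = 0.00976), but these are differences of a few normalised read counts. With a pseudocount of 8 the change at 4 h was 0.60, and without replicate 2 or replicate 3 neither the F test nor the changes at 2 and 4 h passed (F test adjusted p = 0.168 and 0.234, changes of 1.58 to 2.08).

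Adora2b encodes the Gs-coupled adenosine receptor of low affinity, which responds where adenosine accumulates. The gene lies on the plus strand at chr11:62248984-62266452. Untreated samples held 6, 7 and 11 normalised read counts. LPS raised it to 153, 167 and 130 at 0.5 h and 451, 456 and 504 at 1 h, after which it stood at 101, 85 and 120 at 2 h and at 128, 149 and 146 at 4 h. Each LPS sample lay far above the untreated ones, and the mean at 1 h was 58.8-fold the untreated mean. In log2 terms the changes were 4.10, 5.75, 3.54 and 4.02 (each ± 0.19), with adjusted p from 3.08e-10 to 2.03e-12. The drop from 1 to 2 h was −2.21 ± 0.19 (adjusted p = 1.86e-07). The later gain from 2 to 4 h of 0.47, although no sample at 4 h was as low as any at 2 h, did not pass (adjusted p = 0.0934).

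IL-4 raised Adora2b as well, to 30, 43 and 37 at 0.5 h, then 24, 53 and 33 after 1 h, 16, 23 and 13 after 2 h and 17, 18 and 20 after 4 h, with every sample above the untreated ones. On the log2 scale the changes were 2.09, 2.03, 1.03 and 1.14 (each ± 0.30), with adjusted p = 0.000223, 0.000205, 0.0196 and 0.0120. The rises at 2 and 4 h lost their call without replicate 2 or replicate 3 (0.75 to 1.43, adjusted p = 0.0529 to 0.186), and that at 2 h also without replicate 1 (0.90, adjusted p = 0.0631). The promoter of Adora2b is shown beside that of P2ry2, since both genes peaked at 1 h of LPS and rose early under IL-4. It is chr11:62248734-62249033 on the plus strand and held none of the 5 motifs.
Adora2b promoter: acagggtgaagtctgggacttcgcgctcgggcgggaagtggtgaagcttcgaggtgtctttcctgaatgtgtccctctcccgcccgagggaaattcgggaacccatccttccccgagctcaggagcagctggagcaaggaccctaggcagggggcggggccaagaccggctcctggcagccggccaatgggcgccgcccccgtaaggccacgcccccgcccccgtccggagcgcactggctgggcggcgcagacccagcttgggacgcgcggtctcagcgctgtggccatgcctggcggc

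The motifs, searched on both strands, were the NF-kB site, the STAT site (TTC, any 4 bases, GAA), the core of the interferon-stimulated response element (GAAA, any 2 bases, GAAA), the AP-1 site TGANTCA and the cAMP response element TGACGTCA. No match overlapped another. Of 32851 RefSeq promoters of the same length, 8.46% held the NF-kB site, 6.95% the STAT site, 3.44% the interferon element, 7.81% the AP-1 site and 1.79% the cAMP element. The 7 receptor promoters held 3 matches in all, AP-1 in P2rx7, which fell after LPS, and in P2ry14, which rose late, and NF-kB in P2ry12, which fell and returned. The promoters of P2rx4, P2ry2, P2ry13 and Adora2b held none. A match describes letters in a window of 300 bases and no more.

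The tested receptor genes differed in when they changed over the LPS course. Between 0.5 and 1 h 6 of 8 tested genes changed (4 up, 2 down) against 49.7% of all tested genes. Between 1 and 2 h 7 changed, P2rx4, P2ry12, P2ry14 and Adora2a upwards and P2ry2, P2ry6 and Adora2b downwards, against 43.3%. From 2 to 4 h 3 changed, P2ry12 and P2ry14 upwards and P2rx7 downwards, against 22.9%, and between 0.5 and 4 h 6 changed against 63.0%. From 1 to 4 h all 8 changed, 4 in each direction, where 51.1% of all tested genes changed. The receptors for ATP and UTP, for UDP and for low-affinity adenosine signalling (P2ry2, P2ry6, Adora2b) had their highest LPS mean at 1 h, and P2rx4, P2ry14 and Adora2a at 4 h. P2rx4 and Adora2a did not differ between 2 and 4 h past the threshold. The P2ry6 rise at 1 h did not pass with equal totals (0.17, adjusted p = 0.436). P2rx7 and P2ry12 belonged to neither set.

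After IL-4 2 of the 8 tested genes were higher and none lower at 0.5 h, where 8.15% of all tested genes were called higher and 8.14% lower, and the same counts held at 1 h (11.1% and 9.83%). At 2 h 3 were higher and 1 lower (14.3% and 13.2%) and at 4 h 3 and 1 (13.4% and 12.5%). P2ry2 and Adora2b were the genes called at 0.5 and 1 h, and P2ry6, Adora2a and Adora2b those called higher at 2 and 4 h. No gene changed between 0.5 and 1 h or between 2 and 4 h in limma at an adjusted p under 0.05 (7.82% and 5.48% of all tested genes did), P2ry12 and P2ry14 fell between 1 and 2 h (9.40%), and P2ry2, P2ry12, P2ry14 and Adora2b were lower at 4 h than at 0.5 h (27.3%). These IL-4 counts moved most when replicates were left out. Over the course 8 genes passed without replicate 1, 2 without replicate 2 and 3 without replicate 3, in place of 5.

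A direct comparison of both stimuli was made at each time in 1 fit of all 27 samples, which asks whether the stimuli themselves differed. At 0.5 h 3 genes were higher with LPS and 3 lower (18.0% and 35.8% of all tested genes), at 1 h 4 and 3 (24.0% and 40.5%), at 2 h 5 and 3 (26.4% and 42.3%) and at 4 h 6 and 2 (26.1% and 41.9%). With equal totals these counts were 3 and 4, 3 and 3, 5 and 3, and 5 and 2. P2ry2, Adora2a and Adora2b were higher with LPS at all 4 times. Their differences at 1 h were 3.44 ± 0.38 for P2ry2 (adjusted p = 3.07e-08), 4.81 ± 0.40 for Adora2a (adjusted p = 3.40e-10) and 3.72 ± 0.24 for Adora2b (adjusted p = 3.52e-12). P2rx7 was lower with LPS at all 4 times, by a log2 difference of −3.01 ± 0.16 at 4 h (adjusted p = 6.55e-14).

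**Figure D4:**
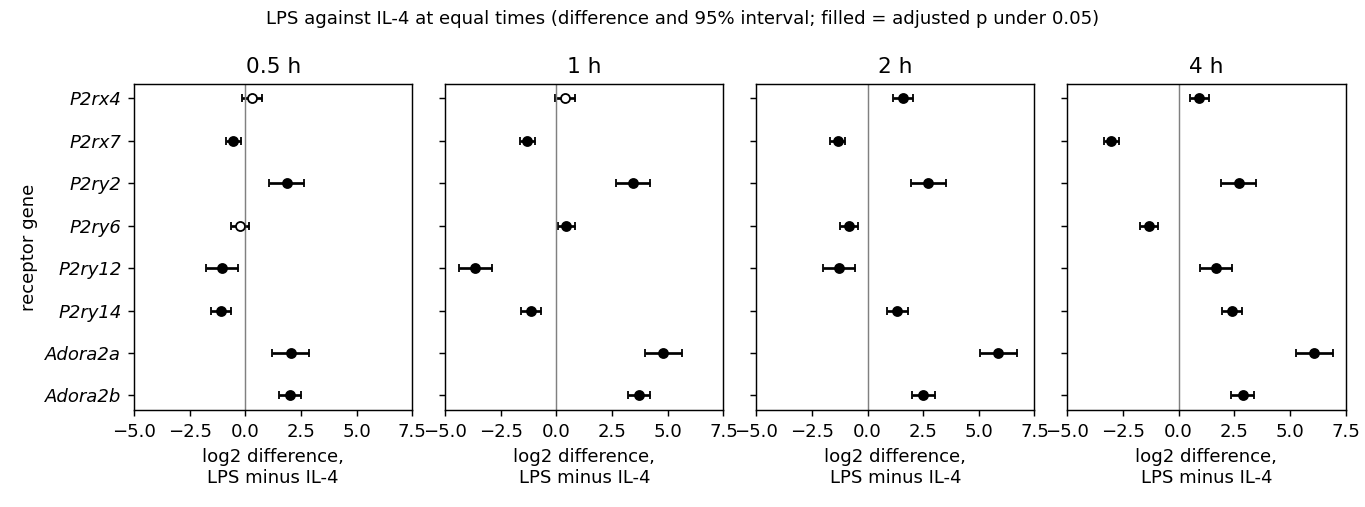
Log2 difference between LPS and IL-4 at equal times (horizontal axis; right of 0 is higher with LPS) for the 8 tested receptor genes, with bars for the 95% interval and filled points where limma gave an adjusted p under 0.05. P2ry12 and P2ry14 moved from below to above 0 along the course and P2ry6 ended below it.

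P2ry12, P2ry14 and P2ry6 changed sides along the course. P2ry12 was lower with LPS at 1 h by −3.64 ± 0.35 (adjusted p = 3.87e-09) and higher at 4 h by 1.69 ± 0.35 (adjusted p = 0.000188). P2ry14 went from −1.11 ± 0.22 at 0.5 h (adjusted p = 0.000154) to 2.39 ± 0.22 at 4 h (adjusted p = 1.07e-09). P2ry6 was higher with LPS at 1 h by 0.45 ± 0.20 (adjusted p = 0.0468) and lower at 4 h by −1.33 ± 0.20 (adjusted p = 2.09e-06). The former difference was −0.03 with equal totals and did not pass without replicate 2 or replicate 3 (0.51 and 0.38, adjusted p = 0.133 and 0.268). P2rx4 did not differ past the threshold at 0.5 and 1 h (0.31, 95% interval −0.14 to 0.75, and 0.38, −0.07 to 0.82) and was higher with LPS at 2 h by 1.61 ± 0.21 (adjusted p = 4.86e-07) and at 4 h by 0.94 ± 0.21 (adjusted p = 0.000470), of which the last fell to 0.32 and did not pass with equal totals. The differences at 0.5 h of P2rx7 (−0.55, adjusted p = 0.00605) and P2ry12 (−1.04, adjusted p = 0.0152) were −0.31 and −0.80 with median-of-ratios factors and did not pass. That of P2rx7 was −0.57 without replicate 3 (adjusted p = 0.0895) and that of P2ry12 −0.72 without replicate 2 (adjusted p = 0.303), and the difference of P2ry12 at 2 h, −1.28 (adjusted p = 0.00265), was −1.08 without replicate 2 (adjusted p = 0.0904).

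The genes whose pattern over the 9 group means was most like that of a receptor were found by Pearson's r of log2(value + 1), over 8663 or 8664 genes with a mean of at least 50 in their highest group. For P2ry2 they were the non-coding Gm46758 (r = 0.987) and Ccl2 (r = 0.984), the chemokine that recruits monocytes, whose mean went from 3 ± 3 to 227 ± 34 at 1 h of LPS. For Adora2b they were Gnb1 (r = 0.981), a G protein beta subunit, and Hif1a (r = 0.977), the hypoxia-inducible factor, with 272 ± 27 in untreated samples and 1095 ± 201 at 1 h of LPS. For Adora2a they were Pdgfrb (r = 0.991) and Tnfsf15 (r = 0.989), and for P2rx7 Ttk (r = 0.986), a mitotic kinase with 8 to 121 normalised read counts in the 3 untreated samples, and Lrmp (r = 0.985). For P2rx4 Syn3 reached r = 0.966. P2ry6 was most like Plxnd1 (r = 0.962) and the tetraspanin Cd9 (r = 0.960), and P2ry14 like Rab31 (r = 0.970) and Xpo6 (r = 0.968). P2ry12 had the weakest partners, Vps26a (r = 0.893) and Mertk (r = 0.890). These r describe 9 group means that share samples and scaling.

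Other genes of the purinergic system were counted in 5 lists of 59 genes. In the LPS course the largest change was upwards in 32.9% of all tested genes and downwards in 54.7% among those that passed, with a median largest change of −1.002, and in the IL-4 course the shares were 19.4% and 20.9% and the median −0.16. Of 11 other receptor genes with P2rx, P2ry or Adora symbols 3 were tested. P2ry10b was higher over the LPS course (log2 change 1.58 at 0.5 h, F test adjusted p = 0.0481), with samples from 38 to 179 at 0.5 h. None of the tested genes of this list passed over that course with a pseudocount of 0.5, with no filter, or without replicate 2 or replicate 3. P2ry1, the ADP receptor that couples to Gq, was higher over the IL-4 course. P2ry1 went from a mean of 4.33 ± 1.2 to 36.3 ± 9.7 at 0.5 h of IL-4 and 26 ± 3 at 4 h (largest log2 change 2.93, F test adjusted p = 1.21e-06) and was picked here after its values were seen, as its level lies under the minimum for named genes. The 8 untested receptors, among them Adora1, Adora3 and P2rx1, had means of at most 6 in every group.

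Of 11 genes for nucleotide release, through channels or vesicles, 10 were tested, and 5 rose and 5 fell over the LPS course while 4 rose and 2 fell over the IL-4 course (median largest change 0.39 and 0.17). Calhm6, a channel subunit, went from 2 in each untreated sample to a mean of 79 ± 13 at 4 h of LPS (log2 change 4.72), Lrrc8c, a subunit of the volume-regulated anion channel, from 139 ± 22 to 1810.3 ± 136 at 4 h, and Gja1, the connexin 43 gene, rose by 3.78 at 1 h. Among IL-4 rises the largest were for Ank, a transporter linked to the export of pyrophosphate and ATP (from 627 ± 52 to 2161 ± 72 at 1 h, log2 change 1.79), for Slc17a9, the vesicular nucleotide transporter (1.45 at 4 h), and for Lrrc8c (0.97 at 1 h).

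Of 9 genes for extracellular nucleotide breakdown 4 were tested. Over the LPS course 1 rose and 3 fell (median largest change −3.28), and over the IL-4 course 1 rose and 1 fell (−1.21). Entpd1, which encodes CD39 and cuts ATP and ADP to AMP, went from a mean of 1343 ± 239 in untreated samples to 91.7 ± 17 at 2 h and 39.7 ± 11 at 4 h of LPS (log2 change −5.07, F test adjusted p = 3.18e-12), and after IL-4 its largest change was −1.28 at 2 h. Enpp1, which cuts ATP to AMP and pyrophosphate, fell by 4.11 at 4 h of LPS and rose by 1.85 at 1 h of IL-4. Enpp4 rose by 3.62 at 4 h of LPS from a mean of 3.33. Nt5e, which encodes CD73, the enzyme from AMP to adenosine, had a mean of at most 10.7 in any group.

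**Figure D5:**
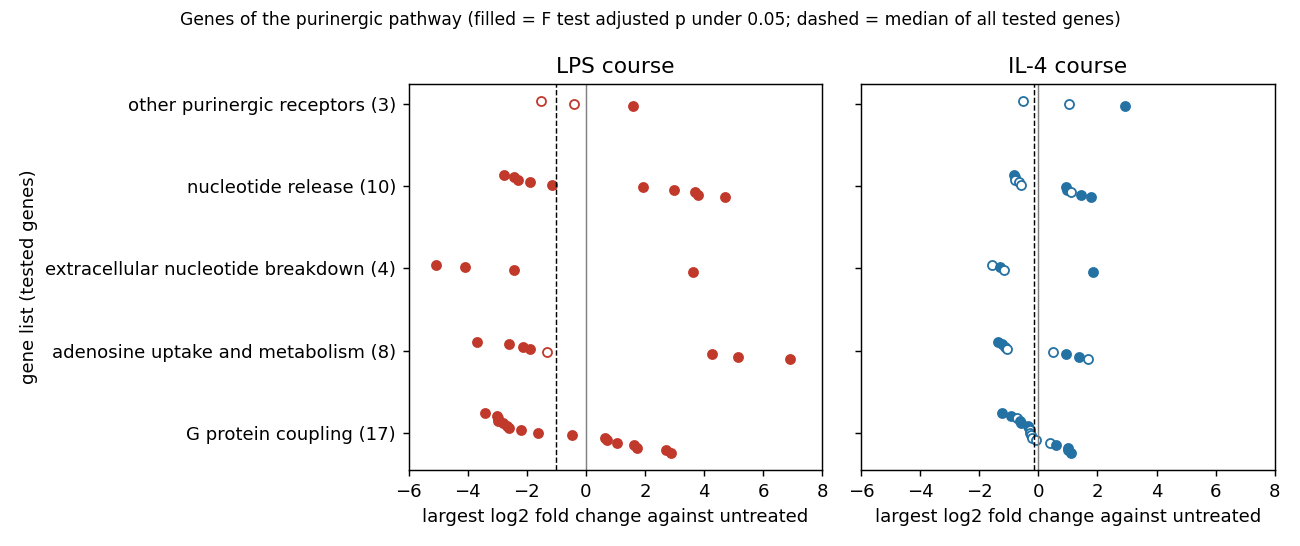
Largest log2 fold change against untreated over the LPS course (left) and the IL-4 course (right) of each tested gene of 5 lists, with the number of tested genes in brackets, filled where the F test of limma gave an adjusted p under 0.05; the dashed line is the median of all tested genes, −1.002 for LPS and −0.16 for IL-4. LPS changes ran from −5.07 (Entpd1) to 6.90 (Slc28a2).

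Of 9 genes for adenosine uptake and metabolism 8 were tested, of which 3 rose and 4 fell over the LPS course and 2 rose and 3 fell over the IL-4 course (median largest change −1.60 and −0.28). Slc28a2, a concentrative nucleoside transporter, went from 19.3 ± 6.5 to 323 ± 157 at 2 h and 2528 ± 1069 at 4 h of LPS (log2 change 6.90), and Pnp, purine nucleoside phosphorylase, from 56.7 ± 15 to 1079.7 ± 118 at 4 h (4.26). Adk, the kinase that turns adenosine into AMP, fell by 3.70 at 4 h of LPS and by 1.12 at 2 h of IL-4. After IL-4 Slc29a3 fell by 1.35 at 0.5 h and Slc29a1, an equilibrative nucleoside transporter of the cell surface, rose by 0.92 at 2 h.

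Of 19 genes for G protein coupling 17 were tested, and 7 rose and 10 fell over the LPS course while 4 rose and 6 fell over the IL-4 course (median largest change −1.61 and −0.27). The largest LPS changes were those of Adcy9, an adenylyl cyclase (−3.40 at 2 h), Gna11, an alpha subunit of the Gq class (−3.02 at 0.5 h), and Plcb2, a phospholipase C (−2.99 at 4 h). The largest IL-4 changes were those of Itpr1, the inositol trisphosphate receptor that releases calcium (−1.23 at 4 h), Gna15 (1.11 at 2 h) and Gnaq (1.02 at 1 h). Gnas, the alpha subunit through which both adenosine receptors act, passed over the LPS course with a largest log2 change of −0.47 at 0.5 h. Its mean went from 135 ± 18 in untreated samples to 98 ± 25 at 0.5 h of LPS. The later LPS means lay above the untreated mean, at 179 ± 24 (1 h), 164 ± 36 (2 h) and 176 ± 13 (4 h).

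Of 19 other genes overlapping a receptor gene or within 50 kb of one, 13 were tested, of which 13 changed over the LPS course (10 upwards) and 4 over the IL-4 course, where 87.6% and 40.3% of all tested genes did. Among them, and named here after their values were seen, Specc1l, which ends 4476 bases before Adora2a on the same strand, stood at 614, 514 and 527 in untreated samples, peaked at 1912, 1435 and 1443 at 1 h of LPS and was back at 588, 590 and 569 at 2 h, when Adora2a was still rising. Ttc19, which starts 15020 bases after Adora2b on the same strand, peaked like it at 1 h of LPS, at 371, 325 and 318 against 90, 77 and 76 in untreated samples (log2 change 2.05), but was back at 74, 76 and 73 at 2 h. Camkk2, which ends 1431 bases from P2rx4 on the opposite strand, rose at every LPS time and was highest at 2 h, at 1929, 1525 and 1672 against 185, 170 and 165 (3.29). The part of such neighbouring transcription in the values of the receptor genes was not tested.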

How the data were processed

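The deposited values are read counts per gene that the authors normalised on a set of invariant genes and rounded, and were handled as a score rather than as raw counts. They come from chromatin-associated RNA of 27 samples, made into libraries with a Smart-seq2 procedure with random primers and sequenced single-end. Per the labels and the study's methods, reads were aligned with TopHat2 2.1.1 to mm10, reads with several hits or in blacklisted regions were removed with samtools and bedtools 2.29.2, and the rest were counted over the GRCm38.p6 RefSeq genes with R/Bioconductor packages. Whether counting used strand is not given in the sources used here. The impulse model of the study was not fitted.

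Tests used limma 3.58.1 on log2(value + 1) (mean-variance trend) in R 4.3.3, with Benjamini-Hochberg adjustment over 13901 genes with at least 10 in at least 3 samples, which held 99.6% of all normalised read counts. Each course was fitted with its 15 samples, and LPS against IL-4 with all 27. The fit was tested on simulated data. The receptor genes, pathway lists, motifs and tests were chosen with earlier results of these data known, and the contrast of 4 h against 1 h of LPS was chosen after seeing the values. The genes named were the receptor genes, tested genes overlapping them, up to 3 genes per list and course with the largest change (F test passed, mean of at least 50 in the higher group) and the 2 genes most like each receptor (1 of these is not reported here), and others are said to be chosen later. The 12 alternatives are in the closing section.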

Additional observations from a re-analysis of the deposited data

Results flagged for a closer look

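P2ry6 and P2ry14 were singled out because their LPS effects at different times had opposite signs and the difference was itself past the threshold in limma. P2ry6 was above untreated at 1 h of LPS (log2 0.75) and below it at 4 h (−0.82), and the contrast of 4 h against 1 h, chosen after seeing the data, was −1.57 ± 0.19 (SE; adjusted p = 5.65e-06). All 3 replicates were above the untreated range at 1 h and below it at 4 h. With equal totals the rise at 1 h was 0.17 and did not pass in limma (adjusted p = 0.436).

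P2ry14 was below untreated at 0.5 and 1 h of LPS (−0.64 and −0.52) and above it at 2 and 4 h (0.95 and 2.05). Its contrast of 2 h against 1 h was 1.48, that of 4 h against 0.5 h was 2.68 and that of 4 h against 1 h, chosen after seeing the data, was 2.57 (SE 0.19 each). Every sample lay on its side of the untreated range. With median-of-ratios factors the falls at 0.5 and 1 h were −0.40 and −0.27 and did not pass in limma (adjusted p = 0.0703 and 0.202), and they also did not pass without replicate 3. Med12l, which spans P2ry14 on the opposite strand, was at 50, 57 and 56 normalised read counts at 1 h and at 433, 413 and 538 at 4 h of LPS, and its part in the P2ry14 values was not tested.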

How the results depend on the processing

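Of 2208 recomputed comparisons of single receptor genes, 2047 kept their direction and their side of the threshold, 63 passed where they had not, 95 no longer passed and 3 turned, all 3 with equal sample totals. These were P2rx4 at 0.5 h of LPS (−0.46 in place of 0.05), P2ry6 at 0.5 h of LPS (−0.49 in place of 0.02) and P2ry6 for LPS against IL-4 at 1 h (−0.0269 in place of 0.45). All 8 tested genes passed over the LPS course under all 12 alternatives. Over the IL-4 course 3 passed with no filter on low values and 3 with replicates 2 and 3 averaged, in place of 5, and 2 to 8 with a replicate left out. With replicates left out, the IL-4 genes called were against untreated 1 to 5 after 0.5 h, 1 to 6 after 1 h, 0 to 3 after 2 h and 0 to 4 after 4 h, 0 to 3 for 2 h against 1 h, 0 to 2 for 4 h against 2 h and 1 to 8 for 4 h against 0.5 h, and the LPS genes called for 4 h against 2 h were 3 to 5. With no filter or with replicates 2 and 3 averaged, 0 were called at 2 h of IL-4 and 0 for 2 h against 1 h, and 2 for 4 h against 0.5 h, and with the averaging 1 at 4 h. The cause was not tested, apart from the fewer samples of the averaged and reduced fits.

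Deviations of samples with the same replicate number correlated at 0.351 to 0.713 (replicate 1), 0.0897 to 0.361 (replicate 2) and 0.202 to 0.454 (replicate 3), and 20 of 27 samples correlated best with their own number. Of the same-number pairs 36, 34 and 36 of 36 exceeded 0.1 for replicates 1, 2 and 3. Pairs with different numbers correlated at −0.583 to 0.390, and 70 of 216 exceeded 0.1. Since not every same-number pair exceeded 0.1 and the labels do not say what the numbers mark, they were not taken to pair the samples. The main tests thus leave out a likeness between samples of the same number. With the replicate block 6 genes were called for 4 h against 2 h of LPS in place of 3, 4 at 0.5 h and 5 at 1 h of IL-4 in place of 2 each, 4 for 2 h against 1 h of IL-4 in place of 2, and 2 for 4 h against 2 h of IL-4 in place of 0. With it the F tests of P2ry6 (adjusted p = 7.47e-05) and P2rx4 (adjusted p = 0.00131) over the IL-4 course passed, and so did the P2ry6 changes at 0.5 and 1 h of IL-4 (0.28 and 0.30, adjusted p = 0.00835 and 0.00368). The depth is unknown, which limits what can be said of the low values of P2ry13 and of Adora2a outside LPS.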
